A study of Mus musculus with 8 samples.

Results

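Described here are 10 mouse genes of the integrated stress response and of serine synthesis, taken by name from a count table of 32499 genes. They are the transcription factor gene Atf4, the stress genes Ddit3, Trib3, Chac1 and Sesn2, and the amino acid synthesis genes Asns, Phgdh, Psat1, Psph and Shmt2. All 10 were in the table and passed the filter on low counts. Each was measured in 4 groups of 2 RNA sequencing libraries made from total RNA. The cells were pre-B cells of C57BL/6 bone marrow origin that lacked the tumour suppressor Arf (Arf-/-) in every group, controls included. They had been transduced with lentivirus for HA-tagged TCF3-ZNF384, TAF15-ZNF384 or full-length ZNF384, or with the empty vector (EV), and were sorted for GFP. ZNF384 is a zinc finger transcription factor, and its fusions with TCF3, TAF15 and other partners occur in acute leukaemia. The promoter that drove each construct and the time between transduction and harvest are not given in the sources used here. The design calls the libraries of a group biological replicates, and nothing more is given on whether they came from separate transductions, so p-values measure the spread between these libraries.

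In the integrated stress response, kinases that sense amino acid shortage, misfolded protein, haem deficiency or viral RNA phosphorylate the translation factor eIF2, which slows protein synthesis as a whole. The mRNA of ATF4 is then translated more, so that ATF4 protein depends on translation as well as on its transcript. ATF4 induces amino acid transporters, aminoacyl-tRNA synthetases and the enzymes that make asparagine and serine, together with stress genes that shut the response off or lead to cell death. Serine is made from a glycolytic intermediate by PHGDH, PSAT1 and PSPH in turn, and SHMT2 passes its one-carbon unit to folate in mitochondria, for purines and thymidine. Growing lymphoid cells draw on both serine and asparagine.

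ATF4 binds with C/EBP partners to a short composite element, and the promoters of the members were therefore read for it. Promoters were RefSeq windows from 250 bases before to 50 bases after each gene start (GRCm38.p6). All 10 genes had one, 11 windows in all, and each window matched the mm9 genome build of the counts exactly once. The letters TGATGNAA and TGNTGCAA were searched on both strands, and a single site can carry both, as in Chac1. Trib3, Chac1, Sesn2, Asns and Psat1 held a match. That was 5 of 10 members, whereas 7.07% of the 27025 genes with a promoter held one in any of their windows. The members were chosen as Atf4 and its known targets, so a share above that of all genes can follow from the choice and is not a test. The matches are shown because these 5 genes behaved differently from each other in the counts below. Each is 30 bases of mm9 written 5′ to 3′ on the gene's own strand, with the match in capitals.
Trib3, chr2:152169811-152169840, minus strand: cgggtcacagaTGGTGCAAtcccgggccgc
Chac1, chr2:119176774-119176803, plus strand: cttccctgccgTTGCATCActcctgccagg
Sesn2, chr4:132066571-132066600, minus strand: catgcaaaagtTTGCAGCAtctgtgcgagg
Asns, chr6:7643214-7643243, minus strand: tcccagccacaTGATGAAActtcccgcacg
Psat1, chr19:15999667-15999696, minus strand: acgcgggtggcTGGTGCAAtcccctgctct
Relative to the gene start, the capitals begin at −33 in Trib3, −193 in Chac1, −218 in Sesn2, −23 in Asns and −136 in Psat1. The start of Psat1 is that of the first of its 2 RefSeq windows and lies inside the longer GENCODE gene model, which begins upstream at 16021827. Trib3 held another match just after its start, which is not printed. In Chac1 and Sesn2 the match lies on the opposite strand, so the motif reads from right to left as printed. A match is a description of the letters and not a measured binding site. No match in Atf4, Ddit3, Phgdh, Psph and Shmt2 says only that these letters are not in those windows.

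Total counts ran from 9381954 to 41483660 per library, and the 4 fusion libraries were the shallowest. Member counts ran from 28 (Chac1 in a TCF3-ZNF384 library) to 20620 (Phgdh in a ZNF384 library). The B lineage markers Cd79a and Pax5 were abundant in all 8 libraries, at 547 to 746 CPM (counts relative to the TMM-scaled library total) and 926 to 1140 CPM. Marker sums of other lineages stayed low, at 0.423 to 1.83 CPM for myeloid, 0.619 to 1.94 for T and NK and 0.229 to 1.21 for stromal genes, with Cd8a at 0 throughout. Of the megakaryocyte and erythroid genes, Itga2b was at 1.22 to 3.22 CPM and Klf1 at 0.552 to 3.81. The myeloid gene Itgam had 11 and 17 counts with TCF3-ZNF384 and 0 and 1 with EV (adjusted p = 0.00155), and the NK gene Klrb1c had 6 and 20 with TCF3-ZNF384 and 2 and 0 with EV (adjusted p = 0.00578). No library held more than 1.01 CPM of Itgam or 1.08 CPM of Klrb1c, and their part in the results was not tested. Zfp384, the mouse counterpart of ZNF384 to which part of the construct reads can map, was at 511 and 450 CPM with TCF3-ZNF384, 185 and 162 with TAF15-ZNF384, 51.1 and 90.2 with ZNF384 and 24.0 and 21.6 with EV. The ZNF384 libraries also stood apart in 2 ways. Summed immediate early and heat shock genes were at 530 and 628 CPM there, against 1440 to 2540 in the other 6 libraries, and 5 abundant non-coding genes took 10.9 and 12.5% of the counts, against 18.5 to 33.2%.

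Differences were tested with edgeR's quasi-likelihood F test on all 8 libraries together, with Benjamini-Hochberg adjustment over 12970 genes and a threshold of 0.05. With TCF3-ZNF384, 7 of the 10 members fell below EV and none rose, where 17% of all tested genes fell and 16.2% rose. With TAF15-ZNF384 6 members fell and none rose, against a background of 6.01% lower and 5.01% higher. With ZNF384 7 fell and none rose, against 9.87% lower and 10.8% higher. The median log2 change of the members was −1.05, −0.57 and −0.66 with TCF3-ZNF384, TAF15-ZNF384 and ZNF384, and that of all tested genes was 0.011, 0.009 and 0.034. The 3 comparisons share the same EV libraries, so their values are set side by side here and are not independent of each other. Over EV, TCF3-ZNF384 changed 4317 genes, TAF15-ZNF384 1430 and ZNF384 2675 in this fit of all 8 libraries. With only the compared groups fitted the numbers were 5370, 2746 and 1787, so the order of TAF15-ZNF384 and ZNF384 depends on the fit. The background shares come from the fit of all 8 libraries and share this dependence. These numbers also depend on how many libraries are fitted, since leaving 1 out of a compared group leaves a single library there.

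**Figure D1:**
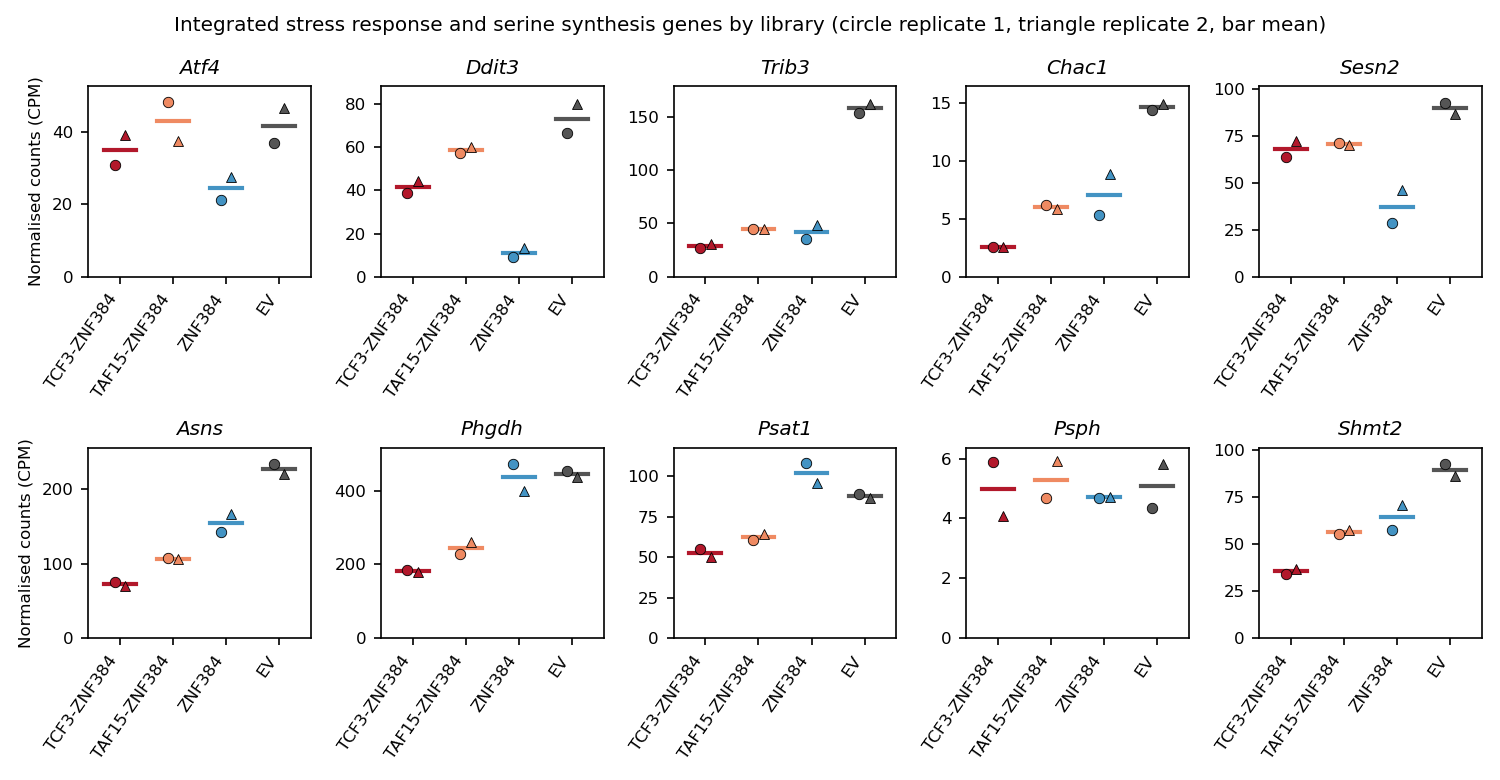
Normalised counts (CPM, linear axis from 0) of the 10 genes in each of the 8 libraries, with TCF3-ZNF384, TAF15-ZNF384, ZNF384 and EV from left to right; circles are replicate 1, triangles replicate 2 and bars the group mean. Ddit3, Sesn2 and Atf4 are lowest with ZNF384, Asns, Phgdh, Psat1 and Shmt2 are lowest with TCF3-ZNF384, and Psph lies between 4.09 and 5.92 CPM in all 8 libraries.

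Atf4 encodes the transcription factor at the centre of the response (mm9 chromosome 15, from 80085614 to 80087970, protein coding). Its transcript was at 30.8 and 39.0 CPM with TCF3-ZNF384, 48.3 and 37.4 with TAF15-ZNF384, 21.3 and 27.6 with ZNF384, and 36.8 and 46.5 with EV. Both ZNF384 libraries lay below the other 6, while each fusion overlapped EV. Atf4 fell with ZNF384 by 0.78 ± 0.17 on the log2 scale (SE, adjusted p = 0.00784), a call that ended without ZNF384 replicate 1 (−0.61, adjusted p = 0.0697) and without EV replicate 2 (−0.59, adjusted p = 0.0706). Against EV it did not pass with TCF3-ZNF384, at −0.24 ± 0.17 with a 95% interval of −0.62 to 0.13, or with TAF15-ZNF384, at 0.04 ± 0.17 with an interval of −0.34 to 0.42. In bulk RNA, fewer cells making a transcript and less of it per cell cannot be told apart, here and in every result that follows.

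Ddit3 encodes CHOP, a C/EBP family factor that ATF4 induces and that promotes cell death when stress lasts (chromosome 10, from 126727830 to 126733344, protein coding). It was at 39.0 and 44.3 CPM with TCF3-ZNF384, 57.6 and 60.0 with TAF15-ZNF384, 9.17 and 13.1 with ZNF384, and 66.5 and 79.9 with EV. No 2 groups overlapped, and the order from the highest was EV, TAF15-ZNF384, TCF3-ZNF384 and ZNF384. Ddit3 fell by 2.74 ± 0.15 on the log2 scale with ZNF384, to a level 6.68-fold below EV (adjusted p = 1.21e-06). This was the largest change over EV of any member in any group. With TCF3-ZNF384 it fell by 0.81 ± 0.14 (adjusted p = 0.000796). With TAF15-ZNF384 it was at −0.32 ± 0.14 (adjusted p = 0.178), which passed when only those 2 groups were fitted (−0.31, adjusted p = 0.0263), without either ZNF384 replicate (−0.31, adjusted p = 0.0288 without replicate 1 and 0.0285 without replicate 2) and with no filter on low counts (−0.34, adjusted p = 0.0472). Ddit3 overlaps the methionyl-tRNA synthetase gene Mars on the opposite strand, and the strand setting of the counting is not given in the sources used here. Mars had 286 to 1633 counts and log2 changes of −0.69, −0.46 and −0.23 over EV with TCF3-ZNF384, TAF15-ZNF384 and ZNF384. The part of Mars reads in the Ddit3 values was not tested.

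Sesn2 encodes sestrin 2, a leucine-binding inhibitor of mTORC1 that ATF4 and p53 can both induce (chromosome 4, from 132047947 to 132066416, protein coding). Its level was 63.7 and 72.4 CPM with TCF3-ZNF384, 71.2 and 70.2 with TAF15-ZNF384, 28.6 and 46.3 with ZNF384, and 92.8 and 86.9 with EV. The ZNF384 libraries were lowest, the EV libraries highest, and the fusions overlapped each other in between. Sesn2 fell with ZNF384 by 1.27 ± 0.18 (adjusted p = 0.00101). It did not pass with TCF3-ZNF384, at −0.40 ± 0.18 (adjusted p = 0.118), or with TAF15-ZNF384, at −0.35 ± 0.18 (adjusted p = 0.262). Its ZNF384 libraries differed from each other more than those of any other group, and both fusions passed when fitted with EV alone (−0.40, adjusted p = 0.00175 and −0.34, adjusted p = 0.00368), without ZNF384 replicate 1 (adjusted p = 0.000554 and 0.00532), without ZNF384 replicate 2 (0.000553 and 0.00537) and with no filter (0.00308 and 0.0234).

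The 3 genes lowest with ZNF384, namely Atf4, Ddit3 and Sesn2, thus had their minimum in the 2 libraries where 2 sums were lowest. These were the summed immediate early and heat shock genes and the summed share of the 5 non-coding genes. Not each of the 5 was lowest there. AY036118 stood at 0.05 ± 0.23 with ZNF384 over EV, and Gm42418 at −0.45 ± 0.14 with TCF3-ZNF384 over ZNF384. With those 5 genes left out of the counts, ZNF384 over EV gave −0.80 for Atf4, −2.76 for Ddit3 and −1.29 for Sesn2, all still past the threshold. After thinning every library to the shallowest total the values were −0.70, −2.64 and −1.33. Of the immediate early genes 17 of 18 fell with ZNF384 (9 to 18 over the alternatives), where 9.87% of all tested genes fell. Their part in these results was not tested.

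Trib3 encodes a pseudokinase that is an ATF4 and CHOP target and feeds back on ATF4 (chromosome 2, from 152163158 to 152169768, protein coding); its promoter match is the first printed above. It was at 27.1 and 30.7 CPM with TCF3-ZNF384, 44.6 and 44.7 with TAF15-ZNF384, 35.8 and 48.5 with ZNF384, and 154 and 162 with EV. Every library with a construct lay below both EV libraries, TCF3-ZNF384 was lowest, and TAF15-ZNF384 lay inside the range of ZNF384. Trib3 fell with TCF3-ZNF384 by 2.44 ± 0.14 on the log2 scale, a 5.44-fold lower level (adjusted p = 2.04e-08). The log2 change was −1.82 ± 0.13 with TAF15-ZNF384 (adjusted p = 2.46e-06) and −1.91 ± 0.13 with ZNF384 (adjusted p = 1.47e-06).

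Chac1 encodes a glutathione-degrading enzyme induced by ATF4 (chromosome 2, from 119176965 to 119180117, protein coding). This gene was the least abundant of the stress genes, at 2.58 and 2.53 CPM with TCF3-ZNF384, 6.20 and 5.82 with TAF15-ZNF384, 5.30 and 8.87 with ZNF384, and 14.4 and 14.9 with EV. The order matched that of Trib3, with EV highest and apart, TCF3-ZNF384 lowest and apart, and the other groups overlapping. Chac1 fell 5.74-fold with TCF3-ZNF384, a log2 change of −2.52 ± 0.24 (adjusted p = 3.08e-06). It was −1.29 ± 0.23 with TAF15-ZNF384 (adjusted p = 0.00255) and −1.08 ± 0.20 with ZNF384 (adjusted p = 0.00163). The 3 falls of Trib3 and the 3 of Chac1 passed the threshold under every alternative that was run.

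Asns encodes asparagine synthetase, whose loss makes lymphoid leukaemia cells depend on outside asparagine (chromosome 6, from 7625169 to 7643254, protein coding). It was at 75.4 and 69.5 CPM with TCF3-ZNF384, 107 and 106 with TAF15-ZNF384, 143 and 167 with ZNF384, and 233 and 220 with EV. The groups formed 4 separate steps with no overlap. Asns fell with TCF3-ZNF384 by 1.65 ± 0.11 on the log2 scale (3.13-fold lower, adjusted p = 6.55e-08), with TAF15-ZNF384 by 1.08 ± 0.10 (adjusted p = 2.25e-05) and with ZNF384 by 0.55 ± 0.10 (adjusted p = 0.00185).

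Phgdh encodes the first and committed enzyme of serine synthesis (chromosome 3, from 98117093 to 98143913, protein coding). It was at 185 and 179 CPM with TCF3-ZNF384, 227 and 262 with TAF15-ZNF384, 473 and 399 with ZNF384, and 453 and 437 with EV. Both fusions were low, TCF3-ZNF384 the lower, while ZNF384 spanned the range of EV. Phgdh fell with TCF3-ZNF384 by 1.29 ± 0.11 on the log2 scale (2.45-fold lower, adjusted p = 8.99e-07), and with TAF15-ZNF384 by 0.86 ± 0.11 (adjusted p = 0.000179). With ZNF384 it was at −0.03 ± 0.11 over EV, with a 95% interval of −0.26 to 0.20.

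Psat1 encodes the aminotransferase of the next step (chromosome 19, from 15979168 to 16021827, protein coding). It was at 54.7 and 49.9 CPM with TCF3-ZNF384, 60.8 and 64.5 with TAF15-ZNF384, 108 and 95.7 with ZNF384, and 89.0 and 86.4 with EV. Like Phgdh it was low with both fusions, and the ZNF384 libraries lay above EV. Psat1 fell with TCF3-ZNF384 by 0.75 ± 0.10 on the log2 scale (adjusted p = 8.43e-05) and with TAF15-ZNF384 by 0.48 ± 0.10 (adjusted p = 0.00847). The TAF15-ZNF384 call ended without TAF15-ZNF384 replicate 1 (−0.45, adjusted p = 0.125) or 2 (−0.54, adjusted p = 0.0602) and without EV replicate 1 (−0.47, adjusted p = 0.0769). With ZNF384 the change was 0.22 ± 0.10 (adjusted p = 0.139), and it passed without ZNF384 replicate 2 (0.28, adjusted p = 0.0202). A pseudogene that overlaps Psat1 on the other strand, Gm3329, had 0 counts.

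Psph encodes the phosphatase that ends the pathway (chromosome 5, from 130271434 to 130293129, protein coding). It was at 5.89 and 4.09 CPM with TCF3-ZNF384, 4.68 and 5.92 with TAF15-ZNF384, 4.70 and 4.72 with ZNF384, and 4.34 and 5.81 with EV. All groups overlapped, and none of the 6 comparisons passed. The log2 changes over EV were −0.05 with TCF3-ZNF384 (95% interval −0.55 to 0.44), 0.07 with TAF15-ZNF384 (−0.46 to 0.59) and −0.11 with ZNF384 (−0.57 to 0.36). A fall as large as that of Phgdh with TCF3-ZNF384, 1.29, lies outside all 3 intervals. Per length of transcript Psph was also the scarcest member, at 2.79 RPKM (CPM per kilobase of exon) in EV cells, against 179 for Phgdh and 20.6 for Psat1.

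Shmt2 encodes the mitochondrial serine hydroxymethyltransferase (chromosome 10, from 126954195 to 126959491, protein coding). It was at 34.2 and 37.0 CPM with TCF3-ZNF384, 55.5 and 57.8 with TAF15-ZNF384, 57.7 and 70.9 with ZNF384, and 92.8 and 86.3 with EV. TCF3-ZNF384 was lowest and EV highest, and TAF15-ZNF384 touched the range of ZNF384. Shmt2 fell with TCF3-ZNF384 by 1.33 ± 0.12 on the log2 scale (2.51-fold lower, adjusted p = 1.15e-06), with TAF15-ZNF384 by 0.66 ± 0.11 (adjusted p = 0.0022) and with ZNF384 by 0.48 ± 0.11 (adjusted p = 0.00709). The ZNF384 call ended without EV replicate 1 (−0.43, adjusted p = 0.0682). Ndufa4l2, which overlaps Shmt2 on the opposite strand, had at most 7 counts in a library.

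**Figure D2:**
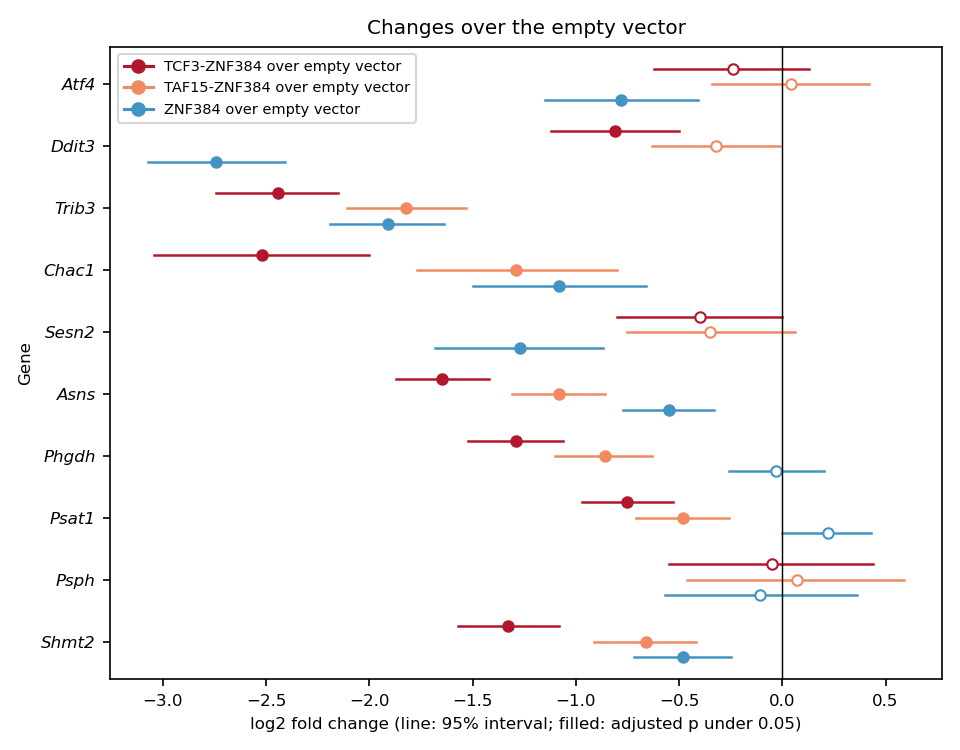
Log2 fold change over EV of each gene with TCF3-ZNF384, TAF15-ZNF384 and ZNF384 (points, with 95% intervals as lines; filled where the adjusted p was under 0.05). Trib3, Chac1, Asns and Shmt2 lie left of 0 and are filled in all 3 colours. Ddit3 and Sesn2 lie furthest left with ZNF384 at −2.74 and −1.27, and Phgdh lies at −1.29 with TCF3-ZNF384 and −0.03 with ZNF384.

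The fusions were next set against the unfused protein. Zfp384, which can count part of the construct, was at 511 and 450 CPM with TCF3-ZNF384 and 185 and 162 with TAF15-ZNF384. With ZNF384 it was at 51.1 and 90.2, so the kind of construct and its level cannot be told apart here. With TCF3-ZNF384, 3 members rose above ZNF384 and 6 fell, where 22.2% of all tested genes rose and 23.4% fell, 45.6% in all. With TAF15-ZNF384, 3 rose and 3 fell, where 15.4% rose and 17.9% fell, 33.3% in all. The members that rose were Atf4, Ddit3 and Sesn2 with each fusion. None of these 3 rose over EV with either fusion. In the same comparisons 17 of 18 immediate early and heat shock genes rose with each fusion, and their part was not tested. Ddit3 was 3.81-fold higher with TCF3-ZNF384, at a log2 change of 1.93 ± 0.16 (adjusted p = 6.23e-07), and 5.36-fold higher with TAF15-ZNF384, at 2.42 ± 0.16 (adjusted p = 3.71e-07). For Sesn2 the change was 0.88 ± 0.18 under TCF3-ZNF384 (adjusted p = 0.00321), and TAF15-ZNF384 gave 0.93 ± 0.19 (adjusted p = 0.00404). Atf4 was higher by 0.53 ± 0.17 with TCF3-ZNF384 (adjusted p = 0.0265) and 0.82 ± 0.18 with TAF15-ZNF384 (adjusted p = 0.00472). Those Atf4 calls did not hold in some fits without 1 library, which leave a single library in a group. The first ended without TCF3-ZNF384 replicate 2 (0.35) and without ZNF384 replicate 1 (0.37). The second ended without TAF15-ZNF384 replicate 1 (0.61) and without ZNF384 replicate 1 (0.65).

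Against ZNF384, Phgdh, Psat1 and Asns fell with both fusions. Phgdh was lower than with ZNF384 by 1.26 ± 0.11 on the log2 scale with TCF3-ZNF384 (adjusted p = 8.19e-07). TAF15-ZNF384 lowered it less, to a log2 change of −0.83 ± 0.11 (adjusted p = 8.05e-05). Psat1 was lower by 0.97 ± 0.10 with TCF3-ZNF384 and 0.70 ± 0.10 with TAF15-ZNF384, and Asns by 1.10 ± 0.10 and 0.53 ± 0.10 with the same fusions, all with adjusted p at or below 0.00164. Shmt2, Chac1 and Trib3 passed with TCF3-ZNF384 alone, which is not a test between the fusions. Against ZNF384 they fell with TCF3-ZNF384, by 0.84 ± 0.12, 1.44 ± 0.25 and 0.53 ± 0.13 on the log2 scale, and stood at −0.18 ± 0.11, −0.20 ± 0.24 and 0.09 ± 0.13 with TAF15-ZNF384, none of which passed. Psph stood at 0.05 ± 0.23 with TCF3-ZNF384 and 0.17 ± 0.24 with TAF15-ZNF384, and passed with neither. Single libraries moved some of these: the Trib3 fall with TCF3-ZNF384 ended without TCF3-ZNF384 replicate 1 (−0.43, adjusted p = 0.0718). With TAF15-ZNF384, Shmt2 passed as lower without ZNF384 replicate 1 (−0.31, adjusted p = 0.0304), and Trib3 passed as higher without ZNF384 replicate 2 (0.34, adjusted p = 0.0122). Both comparisons share the ZNF384 libraries.

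**Figure D3:**
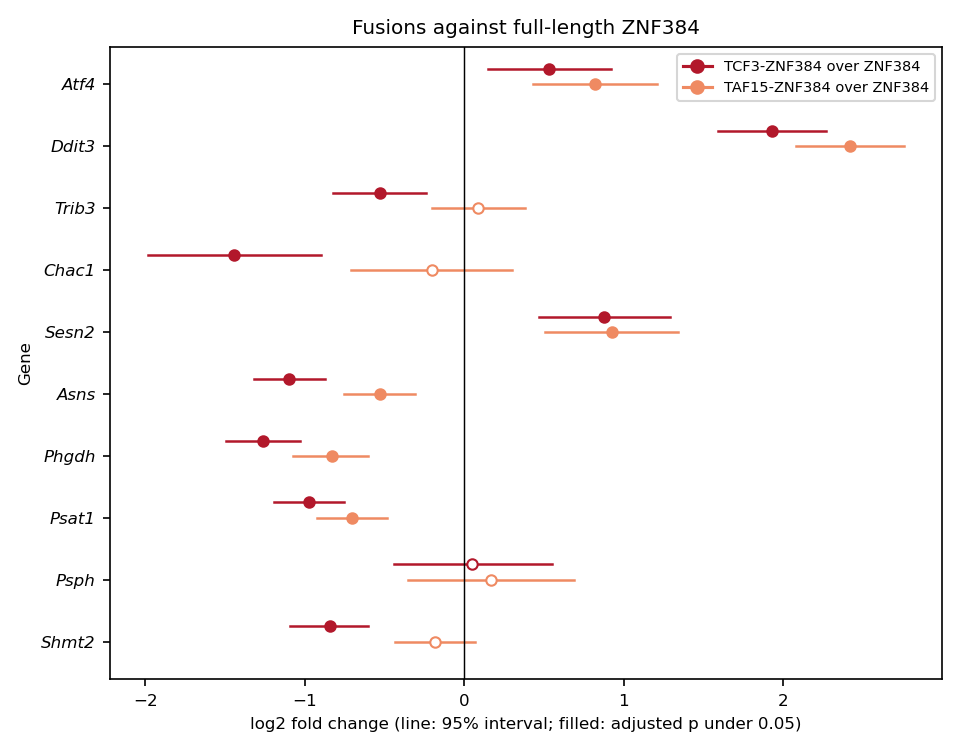
Log2 fold change over full-length ZNF384 of each gene with TCF3-ZNF384 and TAF15-ZNF384 (points, with 95% intervals as lines; filled where the adjusted p was under 0.05). Ddit3, at 1.93 and 2.42, lies right of 0 with Atf4 and Sesn2, and Phgdh, at −1.26 and −0.83, lies left of it with Psat1 and Asns.

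The test of TCF3-ZNF384 directly against TAF15-ZNF384 called 5 members lower and none higher, where 4.17% of all tested genes fell, 5.91% rose and 10.1% changed in all. Zfp384 was at 511 and 450 CPM with TCF3-ZNF384 and 185 and 162 with TAF15-ZNF384. The fusion partner and the level of the construct thus cannot be told apart in this comparison either. Chac1 was lower by 1.23 ± 0.29 on the log2 scale (adjusted p = 0.0128), Shmt2 by 0.66 ± 0.12 (adjusted p = 0.00264), Trib3 by 0.62 ± 0.14 (adjusted p = 0.0109), Asns by 0.56 ± 0.11 (adjusted p = 0.00365) and Phgdh by 0.43 ± 0.11 (adjusted p = 0.022). Ddit3 stood just outside the threshold, at −0.49 ± 0.15 (adjusted p = 0.0521), and passed under 9 alternatives, at −0.54 to −0.48. Atf4 (−0.28 ± 0.18) and Sesn2 (−0.05 ± 0.19) did not pass, with intervals of −0.68 to 0.11 and −0.47 to 0.36. Psat1 was at −0.26 ± 0.11 (adjusted p = 0.141), and passed with only the fusions fitted (−0.27, adjusted p = 0.033) and without ZNF384 replicate 1 or 2 (adjusted p = 0.0315 and 0.0302). With any 1 of the 4 fusion libraries left out, that group is a single library, so fewer calls can pass. Of these members only Shmt2 passed each time, at −0.73 to −0.61 over all fits without 1 library. The estimates of all 5 stayed negative in those fits. Chac1 and Phgdh did not pass without any of the 4, at −1.28 to −1.18 and −0.52 to −0.32. Trib3 passed only without TCF3-ZNF384 replicate 2, and was at −0.62 to −0.54 otherwise. Asns did not pass without TCF3-ZNF384 replicate 2 (−0.51) or TAF15-ZNF384 replicate 2 (−0.57). Over all genes the number of calls was 1308.

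Between genes, levels per kilobase in EV cells ran from 2.79 RPKM for Psph to 179 for Phgdh. After Phgdh came Asns at 82.7 and Trib3 at 74.3 RPKM, then Ddit3 at 42.7, Shmt2 at 39.3, Sesn2 at 25.9, Atf4 at 24.2, Psat1 at 20.6 and Chac1 at 8.95. With TCF3-ZNF384, Trib3 stood at 13.6 RPKM, below Atf4 at 20.3 and Ddit3 at 24.3. With ZNF384, Ddit3 stood at 6.50 RPKM against 14.2 for Atf4 and 19.8 for Trib3. Trib3 was thus among the most abundant members in EV cells and below Atf4 with TCF3-ZNF384.

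Of 6 factors that pair with ATF4 or follow it, 5 fell with TCF3-ZNF384, 4 with TAF15-ZNF384 and 6 with ZNF384, and none rose, where 17%, 6.01% and 9.87% of all tested genes fell. Over the alternatives these counts were 4 to 5, 1 to 4 and 4 to 6. Atf3, a stress-induced factor that is also an immediate early gene, was at 29.3 and 39.1 CPM with TCF3-ZNF384, 62.0 and 59.7 with TAF15-ZNF384, 8.19 and 13.9 with ZNF384, and 62.4 and 88.6 with EV. Like Ddit3 it was lowest with ZNF384, at a log2 change of −2.81 ± 0.28 over EV (adjusted p = 0.000711). Its fall with TCF3-ZNF384, by 1.13 ± 0.27 (adjusted p = 0.0162), ended without TCF3-ZNF384 replicate 1 (−0.94, adjusted p = 0.0999). Atf5, whose translation is controlled like that of ATF4, fell with TCF3-ZNF384 by 1.41 ± 0.19, with TAF15-ZNF384 by 0.79 ± 0.19 (adjusted p = 0.0173) and with ZNF384 by 1.13 ± 0.17. Cebpb, the gene of a C/EBP partner, fell with TCF3-ZNF384 by 1.77 ± 0.31, with TAF15-ZNF384 by 1.07 ± 0.31 (adjusted p = 0.0431) and with ZNF384 by 2.04 ± 0.29. Cebpb was scarce, with group means from 1.25 CPM with ZNF384 to 5.06 with EV. The TAF15-ZNF384 calls of Atf5 and Cebpb ended with any TAF15-ZNF384 or EV library left out. That of Cebpb also ended without either TCF3-ZNF384 library and with DESeq2, voom and thinning. Nupr1, a stress-induced chromatin protein gene, fell with TAF15-ZNF384 by 2.43 ± 0.41 (adjusted p = 0.00185) and with TCF3-ZNF384 by 2.75 ± 0.39 (adjusted p = 0.000112). It also fell with ZNF384, by 1.49 ± 0.31 (adjusted p = 0.00438), a call that ended without EV replicate 2 (−1.36). Nupr1 was scarce, with means of 0.626 CPM with TCF3-ZNF384, 0.807 with TAF15-ZNF384, 1.59 with ZNF384 and 4.35 with EV.

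Of 29 other genes known as ATF4 targets, 25 passed the filter. Gdf15, Fgf21, Stc2 and Slc7a11, with at most 6 counts in any library, did not. Over EV, 21 of the 25 fell and 2 rose with TCF3-ZNF384, 21 fell and none rose with TAF15-ZNF384, and 16 fell and none rose with ZNF384, with medians of −1.07, −0.69 and −0.54. Of all tested genes 17%, 6.01% and 9.87% fell. Over the alternatives the number that fell was 19 to 22, 13 to 22 and 11 to 16, so that the TAF15-ZNF384 count was the least stable.

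The target genes took several shapes across the groups. Gpt2, an alanine aminotransferase gene, was at 27.9 and 26.2 CPM with TCF3-ZNF384, 37.6 and 35.9 with TAF15-ZNF384, 40.0 and 50.2 with ZNF384, and 90.9 and 81.5 with EV. It fell with all 3, by 1.68 ± 0.12, 1.23 ± 0.12 and 0.94 ± 0.12 on the log2 scale. Eif4ebp1, the gene of a translation repressor under mTORC1, was at 52.9 and 54.4 CPM with TCF3-ZNF384, 90.2 and 98.4 with TAF15-ZNF384, 92.3 and 104 with ZNF384, and 174 and 163 with EV. It had the shape of Trib3, with TCF3-ZNF384 lowest and TAF15-ZNF384 overlapping ZNF384. The proline synthesis genes Pycr1 and Aldh18a1 had the shape of Phgdh. Pycr1 was at 9.94 and 12.1 CPM with TCF3-ZNF384, 17.0 and 17.1 with TAF15-ZNF384, 28.7 and 34.4 with ZNF384, and 29.8 and 27.7 with EV. Against ZNF384 it fell with TCF3-ZNF384 by 1.49 ± 0.14 (adjusted p = 1.27e-06) and with TAF15-ZNF384 by 0.88 ± 0.14 (adjusted p = 0.000283). Aldh18a1 fell against ZNF384 by 1.13 ± 0.12 with TCF3-ZNF384 and by 0.77 ± 0.13 with TAF15-ZNF384. The risers were the tryptophanyl-tRNA synthetase gene Wars and the neutral amino acid transporter gene Slc38a2. Wars was at 19.6 and 20.8 CPM with TCF3-ZNF384 and 10.1 and 10.3 with EV, a log2 change of 0.99 ± 0.13 (adjusted p = 4.15e-05), and Slc38a2 rose by 0.51 ± 0.11 (adjusted p = 0.00265).

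Around Shmt2, the serine, glycine and folate genes were counted. Of 15 tested, 9 fell and none rose over EV with TCF3-ZNF384, where 17% of all tested genes fell. With TAF15-ZNF384 3 fell and none rose, and with ZNF384 2 fell and 3 rose, where 6.01% fell with TAF15-ZNF384, and 9.87% fell and 10.8% rose with ZNF384. Differences between these counts were not tested. Over the alternatives 4 to 10, 2 to 5 and 2 to 3 fell. Mthfd2, the mitochondrial folate enzyme that acts after SHMT2, was at 117 and 123 CPM with TCF3-ZNF384, 159 and 148 with TAF15-ZNF384, 199 and 190 with ZNF384, and 294 and 288 with EV. Its log2 changes were −1.28 ± 0.09, −0.92 ± 0.09 and −0.58 ± 0.09, all past the threshold, in the order seen for Asns and Shmt2. Mthfd1l, another mitochondrial folate enzyme gene, fell with TCF3-ZNF384 by 1.07 ± 0.12 over EV and by 1.30 ± 0.12 over ZNF384. Sfxn1, which encodes a mitochondrial serine transporter, and Shmt1, the cytosolic counterpart of Shmt2, rose with ZNF384 over EV by 0.71 ± 0.12 (adjusted p = 0.00104) and 0.73 ± 0.14 (adjusted p = 0.00366). Each was lower with both fusions than with ZNF384, Sfxn1 by 1.13 ± 0.12 with TCF3-ZNF384 and 0.94 ± 0.12 with TAF15-ZNF384. Gldc, Sds, Sdsl, Aldh1l1 and Aldh1l2 had at most 7 counts in a library and were not tested.

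Upstream of ATF4, the eIF2 kinases, the subunits of eIF2 and eIF2B and the phosphatase regulators were counted next. Of 15 tested, 4 fell over EV with TCF3-ZNF384, 1 with TAF15-ZNF384 and 1 with ZNF384, and none rose. Of all tested genes 17%, 6.01% and 9.87% fell, and 33.3%, 11% and 20.6% changed in either direction. Over the alternatives the falls numbered 1 to 8, 1 to 4 and 1. Eif2s2, the beta subunit of eIF2, fell with TCF3-ZNF384 by 0.99 ± 0.12 and with TAF15-ZNF384 by 0.73 ± 0.12. Ppp1r15a, which encodes the inducible GADD34 that reverses eIF2 phosphorylation, was at 7.73 and 14.2 CPM with TCF3-ZNF384, 16.5 and 19 with TAF15-ZNF384, 3.23 and 5.11 with ZNF384, and 12.7 and 20.9 with EV. Like Ddit3 it was lowest with ZNF384. Its fall with ZNF384, by 2.06 ± 0.36 (adjusted p = 0.00658), ended without ZNF384 replicate 1 (−1.73, adjusted p = 0.109).

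The other arms of the unfolded protein response were mixed. Of 16 endoplasmic reticulum genes 9 fell and none rose with TCF3-ZNF384 over EV, 5 fell and none rose with TAF15-ZNF384, and 5 fell and 5 rose with ZNF384. Of all tested genes 17%, 6.01% and 9.87% fell with TCF3-ZNF384, TAF15-ZNF384 and ZNF384, and 10.8% rose with ZNF384. Sdf2l1, an ATF6 and XBP1 target that aids folding, fell by 1.54 ± 0.14 with TCF3-ZNF384 and by 0.86 ± 0.14 with TAF15-ZNF384, and rose by 0.84 ± 0.13 with ZNF384. Dnajb9, an XBP1 target, went the other way with ZNF384, at −1.32 ± 0.18 over EV (adjusted p = 0.000348). Over the alternatives the falls numbered 6 to 10, 1 to 8 and 2 to 5, and the rises with ZNF384 2 to 7.

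Since p53 can also induce Sesn2, p53 targets were counted. Of 11 tested, none fell and 4 rose with TCF3-ZNF384 over EV, none fell and 1 rose with TAF15-ZNF384, and 5 fell and none rose with ZNF384. Of all tested genes 16.2% rose with TCF3-ZNF384, 5.01% rose with TAF15-ZNF384 and 9.87% fell with ZNF384, so 1 of 11 with TAF15-ZNF384 is near the background. Against ZNF384, 9 of 11 rose with each fusion, where 22.2% of all tested genes rose with TCF3-ZNF384 and 15.4% with TAF15-ZNF384. Over the alternatives the rises over EV numbered 0 to 4 with TCF3-ZNF384 and 0 to 5 with TAF15-ZNF384, and the falls with ZNF384 4 to 5. Bbc3, the cell death gene PUMA, was at 33.6 and 40.8 CPM with TCF3-ZNF384, 43.6 and 39.9 with TAF15-ZNF384, 13.1 and 16.3 with ZNF384, and 43.8 and 44.3 with EV. It fell with ZNF384 by 1.60 ± 0.13 (adjusted p = 3.16e-06), in the same libraries as Sesn2. Among the 12 other sestrin and mTORC1 sensing genes, 3 rose and 3 fell with TCF3-ZNF384, none rose and 2 fell with TAF15-ZNF384, and none passed with ZNF384. Of all tested genes 16.2% rose and 17% fell with TCF3-ZNF384, near those counts, and 6.01% fell with TAF15-ZNF384. The fallers numbered 0 to 4 and 0 to 3 with the fusions over the alternatives, so neither count was stable. Of 6 glutathione genes, set beside Chac1, 2 fell and 1 rose with TCF3-ZNF384, 1 fell with TAF15-ZNF384 and 1 fell with ZNF384. Of all tested genes 33.3%, 11% and 20.6% changed in either direction, so no more is read from these counts. With TCF3-ZNF384 the fallers were Gsr, a glutathione reductase gene, at −0.61 ± 0.15, and Ggct, a gene of glutathione breakdown, at −0.75 ± 0.21. The Gsr call ended without TCF3-ZNF384 replicate 2 (−0.47, adjusted p = 0.0982), and the Ggct call without TCF3-ZNF384 replicate 1 (−0.59, adjusted p = 0.109) or EV replicate 2 (−0.57, adjusted p = 0.11). With TAF15-ZNF384 Gsr was at −0.53 ± 0.15 (adjusted p = 0.0442), a call that ended with any TAF15-ZNF384 or EV library left out (−0.59 to −0.48) and with voom. The synthesis gene Gclc fell with ZNF384 by 0.79 ± 0.09 (adjusted p = 5.92e-05) and stood at 0.00 ± 0.09 with TCF3-ZNF384, unlike Chac1. Chac2, the paralogue of Chac1, rose with TCF3-ZNF384 by 0.87 ± 0.15 (adjusted p = 0.000532), where Chac1 fell.

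**Figure D4:**
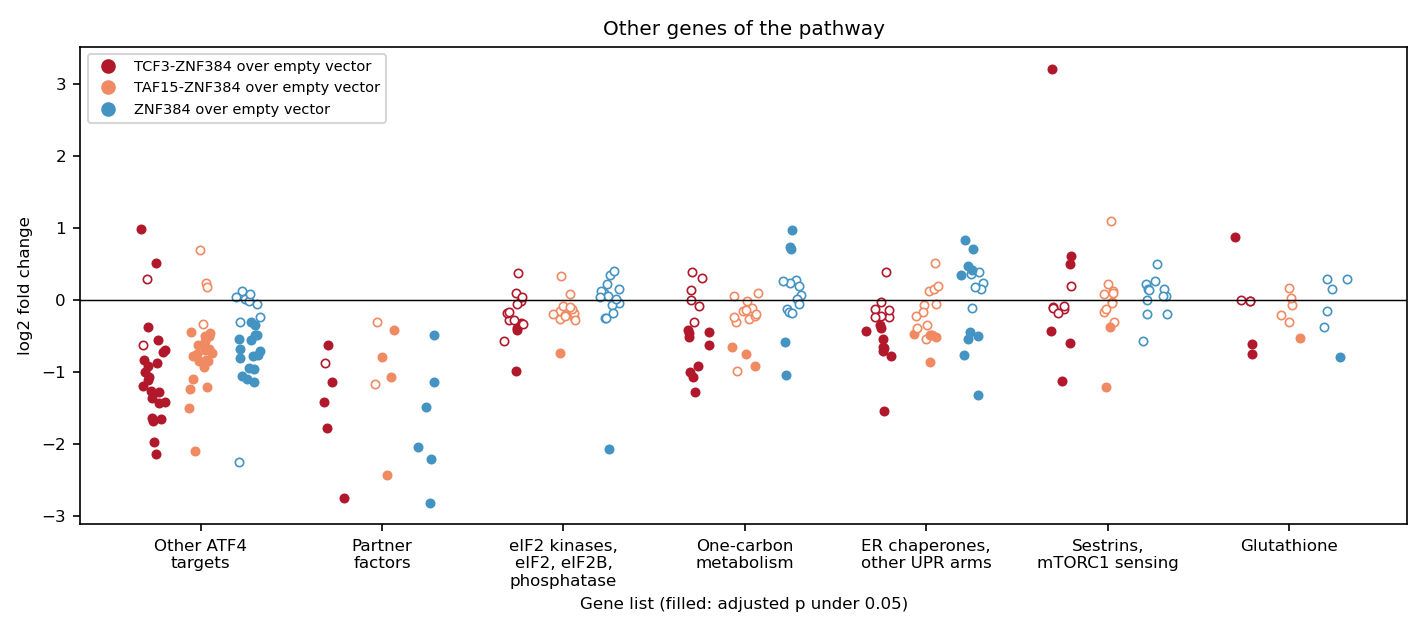
Log2 fold change over EV of each tested gene in the gene groups around the members (1 point per gene, filled where the adjusted p was under 0.05) with TCF3-ZNF384, TAF15-ZNF384 and ZNF384. In the group of other ATF4 targets 21, 21 and 16 of 25 points are filled and below 0, and in the group of kinases, eIF2, eIF2B and phosphatase genes 4, 1 and 1 of 15 are.

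Profiles across the 8 libraries were compared with those of 8578 genes with a mean of at least 5 CPM, by the root mean square difference of centred log2 CPM, where 0 is an identical shape. All genes were measured in the same libraries, so depth and scaling are shared. The genes nearest to Atf4 were Med10, Lrrc8d, Crlf2, Pnpla2 and Jade3, at 0.102 to 0.12. Its nearest fellow member was Sesn2, at 0.264 and rank 485, whereas Asns lay at 0.716 and rank 8104. Nearest to Trib3 were Scarna3a at 0.244, Zc3h12d, Cth at 0.333, Snhg3 and Pim2, with Chac1 at rank 7, Asns at rank 24 and Shmt2 at rank 38. The other members lay further from Trib3, from Phgdh at rank 203 to Ddit3 at rank 6374, with Atf4 at rank 1363. Nearest to Phgdh were Rpsa at 0.108, Rpl14, Spcs2, Rps27a and Aldh18a1 at 0.125, with Psat1 at rank 76, Asns at rank 143 and Ddit3 at rank 8484. Cth, the cystathionine gamma-lyase gene, and Aldh18a1 were also in the group of other ATF4 targets.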

How the data were processed

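Total RNA libraries of 8 samples were analysed. The deposited values are raw counts per gene, which the authors made with HTSeq 0.6.1p1 on mm9, per the submitters' processing notes. Neither an aligner nor a strand setting is given in the sources used here. Counts were tested in R 4.3.3 with edgeR 4.0.16 (filterByExpr by group, TMM scaling, robust quasi-likelihood fit of all groups with 4 residual degrees of freedom, Benjamini-Hochberg over 12970 genes). The SE is the log2 change divided by the root of F. CPM used TMM-scaled totals, and RPKM the merged exon length in GENCODE vM1, which gave the mm9 coordinates by symbol. Scripts were tested on simulated data. The members and gene lists were chosen with earlier results of these data known. Named were the members, Zfp384, up to 3 genes per list and direction by adjusted p (all in lists of up to 6), and the 5 nearest profiles; Mars and marker genes were added as values. Some marker genes are not reported here. Alternatives were DESeq2 1.42.0, its size factors, limma 3.58.1 (voom), other filters, fits of 2 groups, thinning, no abundant non-coding genes, a replicate block and leaving out each library. Leaving out a library leaves 1 in its group, so a call that ends there need not rest on that library. Counting error sets the precision of low genes, most of all in the shallow fusion libraries.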

Additional observations from a re-analysis of the deposited data

How the results depend on the processing

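The member counts over EV were 7 to 8 with TCF3-ZNF384, 5 to 8 with TAF15-ZNF384 and 6 to 8 with ZNF384 when single libraries were left out. They were 8 to 9 and 5 to 7 for TCF3-ZNF384 and TAF15-ZNF384 over ZNF384, and 1 to 7 for TCF3-ZNF384 over TAF15-ZNF384. Genes called ranged likewise over 2501 to 5372, 404 to 2783 and 1064 to 3814 over EV, 3866 to 6558 and 2158 to 5333 over ZNF384, and 371 to 2361 between the fusions. Fitting only the groups compared gave 2746 genes for TAF15-ZNF384 over EV, 1787 for ZNF384 over EV and 2548 between the fusions. The changes that turned sign had not passed: Psph was at 0.02 for TCF3-ZNF384 over EV after thinning and at 0 over ZNF384 with voom. Without single libraries Psph ranged over −0.30 to 0.21, −0.14 to 0.28 and −0.30 to 0.12 over EV, −0.18 to 0.33 and −0.02 to 0.32 over ZNF384, and −0.37 to 0.14 between the fusions. TAF15-ZNF384 over EV gave −0.16 to 0.21 for Atf4, ZNF384 over EV −0.17 to 0.07 for Phgdh, TAF15-ZNF384 over ZNF384 −0.10 to 0.34 for Trib3 and −0.54 to 0.20 for Chac1, and the fusions −0.16 to 0.04 for Sesn2. Chac1 between the fusions lost its call with voom (−1.23, adjusted p = 0.092). Of 2815 values for the other named genes, 2597 kept their call and 218 lost it.

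Replicate numbers are those of the sample titles. The headers of the count columns number the construct libraries differently and give the EV libraries no replicate number. Matching EV to the other groups thus rests on the titles alone. Libraries with the same replicate number deviated together only weakly (r = 0.014 to 0.22 across 12970 genes), so they were not treated as pairs. With a replicate block 7, 6 and 7 members passed over EV, 9 and 6 over ZNF384 and 6 between the fusions, where Ddit3 was added (−0.50, adjusted p = 0.0101), and 4655, 1825, 2999, 6111, 4653 and 1523 genes passed.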
